A study of Mus musculus with 3 samples.

Results

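Txnip and 5 genes of the thioredoxin system were followed through the leukocytes of 4T1 breast tumors. In the p38 groups, p38 signaling was blocked by an oral inhibitor or the p38α isoform was inactivated in the tumor cells. The 6 genes, Txnip, Arrdc4, Txn1, Txnrd1, Prdx1 and Srxn1, were found by symbol among the 32285 genes of the count tables. They were chosen by the summed Txnip counts of monocytes, which were higher in both p38 groups than in vehicle, so the Txnip values of monocytes are a description of what chose the genes and support nothing.

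4T1-luc is a luciferase-labelled mouse mammary carcinoma line of BALB/c origin, and 200000 cells were placed in a mammary fat pad of BALB/c females aged 6 to 8 weeks. Mice with wild-type tumors received either the DPBS vehicle or p38i (LY2228820, ralimetinib, an inhibitor of p38 kinases) at 30 mg/kg by daily gavage from day 4 for 10 days. The p38KO mice carried tumors of a single 4T1 clone, H9, in which CRISPR-Cas9 had inactivated p38α (Mapk14), and no treatment is labelled for them. In that group the tumor cells lacked p38α while the sorted host leukocytes were wild type, so the Mapk14 level of the sorted cells does not test the labels. Tumors of 3 mice per group were pooled on day 14, live CD45+ cells were sorted, and each group was sequenced as 1 library with the 10x 3′ assay. There is therefore no replicate library, no test between groups was possible, and differences between mice, tumors and library preparations cannot be told apart from the groups.

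TXNIP is an alpha-arrestin that binds reduced thioredoxin and restrains it, and it also promotes the removal of glucose transporters from the cell surface. Its transcription is induced through MondoA and ChREBP when glucose metabolites accumulate, which makes the transcript a common readout of glucose sensing. Thioredoxin reduces disulfides in target proteins, thioredoxin reductase recharges it with electrons from NADPH, peroxiredoxins use it to remove hydrogen peroxide, and sulfiredoxin restores overoxidized peroxiredoxins. The transcription factor NRF2 drives several genes of this system through antioxidant response elements.

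Txnip and Arrdc4 are known targets of MondoA and Prdx1 is a known target of NRF2, so their promoters are shown here to let the sequences be read beside the levels. Sequences are from RefSeq on GRCm38.p6, which matched 6 of the 6 genes with 8 promoters, and each run holds the 250 bases before a transcription start, read 5′ to 3′ in the direction of the gene. The first motif searched was a carbohydrate response element written as CACGNG, any 5 bases and CACGNG again. The second was an antioxidant response element core written as TGACNNNGC. Each was searched on both strands of 250 bases before to 50 after the start, and capitals mark the matches. Txnip lies on the plus strand, with its match to the carbohydrate response element 85 to 69 bases before the start, and Arrdc4 lies on the minus strand, with its match to the antioxidant core 28 to 20 bases before the start. The match of Prdx1, on the plus strand, to the antioxidant core was 133 to 125 bases before the start.
Txnip, chr3:96557707-96557956: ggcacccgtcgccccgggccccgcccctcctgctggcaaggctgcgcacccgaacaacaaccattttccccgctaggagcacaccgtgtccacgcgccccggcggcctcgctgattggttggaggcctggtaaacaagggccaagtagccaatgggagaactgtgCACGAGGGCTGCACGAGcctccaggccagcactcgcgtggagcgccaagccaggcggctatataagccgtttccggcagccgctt
Arrdc4, chr7:68749239-68749488: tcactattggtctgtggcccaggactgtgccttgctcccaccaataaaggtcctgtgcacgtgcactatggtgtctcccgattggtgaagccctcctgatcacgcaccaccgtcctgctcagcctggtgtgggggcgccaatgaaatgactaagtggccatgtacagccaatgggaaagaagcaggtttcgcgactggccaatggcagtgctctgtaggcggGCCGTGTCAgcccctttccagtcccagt
Prdx1, chr4:116685349-116685598: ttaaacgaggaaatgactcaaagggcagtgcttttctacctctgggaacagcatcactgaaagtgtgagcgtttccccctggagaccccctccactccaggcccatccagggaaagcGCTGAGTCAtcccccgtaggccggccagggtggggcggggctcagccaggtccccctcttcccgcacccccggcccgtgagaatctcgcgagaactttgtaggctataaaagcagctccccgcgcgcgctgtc

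The carbohydrate response element was matched in the Txnip promoter and in no promoter of the other 5 genes, and it was matched in 16 of all 32851 promoters of that length (0.0487%). The antioxidant core was matched in 4071 of them (12.4%), among them a promoter of Arrdc4, Txnrd1, Prdx1 and Srxn1. A match is a description of letters in this window and not of a bound site.

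On GRCm38 with GENCODE M21, Txnip spans chr3:96557957-96561883 and overlaps the antisense gene Gm15441, which had at most 41 counts in any class of cells in any library. Arrdc4 spans chr7:68736995-68749241, Txn1 chr4:57943373-57956411, Txnrd1 chr10:82833951-82897712, Prdx1 chr4:116685544-116700822 and Srxn1 chr2:152105516-152111376. Arrdc4, Txn1, Prdx1 and Srxn1 overlap no other annotated gene, and the overlapping Gm38560 and Eid3 of Txnrd1 had 0 and at most 28 counts per class.

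After the cell filter 12472 of 16143 barcodes were kept, with a median of 3038 to 3317 unique molecular identifiers (UMIs, tags that count each captured transcript once) per cell. Cells were gated by counts of Csf3r and Cxcr2 (neutrophils), Ly6c2 and Fn1 (monocytes), C1qa (macrophages), Cd3e (T cells), Ncr1 (NK cells) and Flt3 (dendritic cells, DCs), which left 2244 cells ungated. The gates held 1675 to 2401 neutrophils, 363 to 752 monocytes, 112 to 338 macrophages, 490 to 613 T cells, 109 to 123 NK cells and 17 to 33 DCs per library. Marker genes that the gates did not use were detected in their own gate, except Klra8 in NK cells and Siglech in DCs, which were at 0 in all 3 libraries. The median mitochondrial share of counts was highest in the p38KO library, at 2.10% of UMIs against 0.671% in vehicle and 0.968% in p38i. Any pair of libraries shared 4 or 5 barcodes among kept cells.

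Levels are given as counts scaled to 1000000 UMIs of the class (CPM) with an exact 95% Poisson interval, and differences as log2 ratios to vehicle with an exact conditional 95% interval. These intervals cover counting error only, that is, the error of drawing UMIs from 1 library. A gene is called past the limit where its log2 ratio was at least 0.5 either way with at least 100 counts over both libraries, and the share of all genes past it in the same class and direction is the background. The 3′ assay gives no value per transcript length, so levels are compared between libraries and classes and not between genes.

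Txnip, the inhibitor of thioredoxin, was 2.12-fold and 2.39-fold higher than in vehicle in monocytes and macrophages of p38i tumors. It was 1.68-fold, 2.12-fold and 1.73-fold higher in neutrophils, monocytes and macrophages of p38KO tumors. In NK cells it was 1.92-fold and 2.04-fold lower in p38i and p38KO, and in T cells it was close to vehicle. In monocytes Txnip stood at 74.6 CPM (66.5 to 83.4) in vehicle, 158 CPM (148 to 168) in p38i and 158 CPM (145 to 173) in p38KO. Both p38 libraries thus lay above the vehicle library, and the intervals of the p38 libraries overlapped. The log2 ratio to vehicle was 1.08 (0.90 to 1.27) for p38i and 1.09 (0.88 to 1.30) for p38KO, and the direct log2 ratio of p38KO to p38i was 0.00 (-0.16 to 0.16). Among the monocyte genes with enough counts, Txnip was the 14th highest of 7182 for p38i and the 47th of 6327 for p38KO. These ranks come from the values that chose the genes and support nothing. Since p38i and p38KO were set against the same vehicle library, the 2 ratios are not independent.

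In macrophages, which phagocytose and present antigen in the tumor, Txnip stood at 78.8 CPM (66.8 to 92.4) in vehicle, 188 CPM (170 to 208) in p38i and 136 CPM (126 to 147) in p38KO. The 3 levels did not overlap, and p38KO lay between the other libraries. The log2 ratio was 1.26 (0.98 to 1.54) for p38i, the 6th highest of 4730 genes, and 0.79 (0.53 to 1.05) for p38KO, the 212th of 6528. The direct ratio of p38KO to p38i was -0.47 (-0.65 to -0.28).

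In neutrophils, the most abundant class, Txnip stood at 322 CPM (307 to 336) in vehicle, 346 CPM (333 to 360) in p38i and 540 CPM (519 to 563) in p38KO. Here the p38KO library stood apart, and the intervals of vehicle and p38i overlapped. The log2 ratio was 0.11 (0.02 to 0.19) for p38i, close to the median of all neutrophil genes (0.10) and 0.00 with median-ratio scaling, and 0.75 (0.66 to 0.84) for p38KO, the 205th highest of 5284 genes. The direct log2 ratio of p38KO to p38i was 0.64 (0.56 to 0.72).

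In NK cells, cytotoxic lymphocytes, the direction was the opposite: Txnip stood at 267 CPM (229 to 310) in vehicle, 139 CPM (112 to 170) in p38i and 131 CPM (109 to 157) in p38KO, on 176, 95 and 119 counts. Both p38 libraries lay below vehicle and their intervals overlapped. Markers of the Txnip-high classes were lower there as well: the 5 T cell markers, all detected, summed to 596, 380 and 361 CPM in the NK gate, and the 5 neutrophil markers, of which 4, 5 and 4 were detected, to 522, 358 and 154 CPM. Their part in the Txnip values was not tested. The log2 ratio was -0.94 (-1.32 to -0.58) for p38i, the 37th lowest of 2009 genes, and -1.03 (-1.37 to -0.68) for p38KO, the 44th lowest of 2390.

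T cells had 299 CPM of Txnip in vehicle, 279 CPM in p38i and 297 CPM in p38KO. The 3 intervals overlapped, and the log2 ratios were -0.10 (-0.24 to 0.04) and -0.01 (-0.15 to 0.13). In DCs the Txnip levels were 104, 116 and 113 CPM on 27, 44 and 41 counts, too few to be read against the limit. In every library Txnip was highest in neutrophils. The lowest point in vehicle was that of monocytes, with an interval that overlapped those of macrophages and DCs. In p38i and p38KO the lowest point was that of DCs. Their intervals overlapped those of NK cells and monocytes, and in p38KO also that of macrophages, so no class stood alone as the lowest. When the 18 levels were put in order, from 540 CPM in p38KO neutrophils to 74.6 CPM in vehicle monocytes, the intervals of 15 of 17 neighboring pairs overlapped. The breaks lay below p38KO neutrophils and below vehicle NK cells, so the levels of T cells and vehicle NK cells formed a continuous run with those of vehicle and p38i neutrophils.

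**Figure D1:**
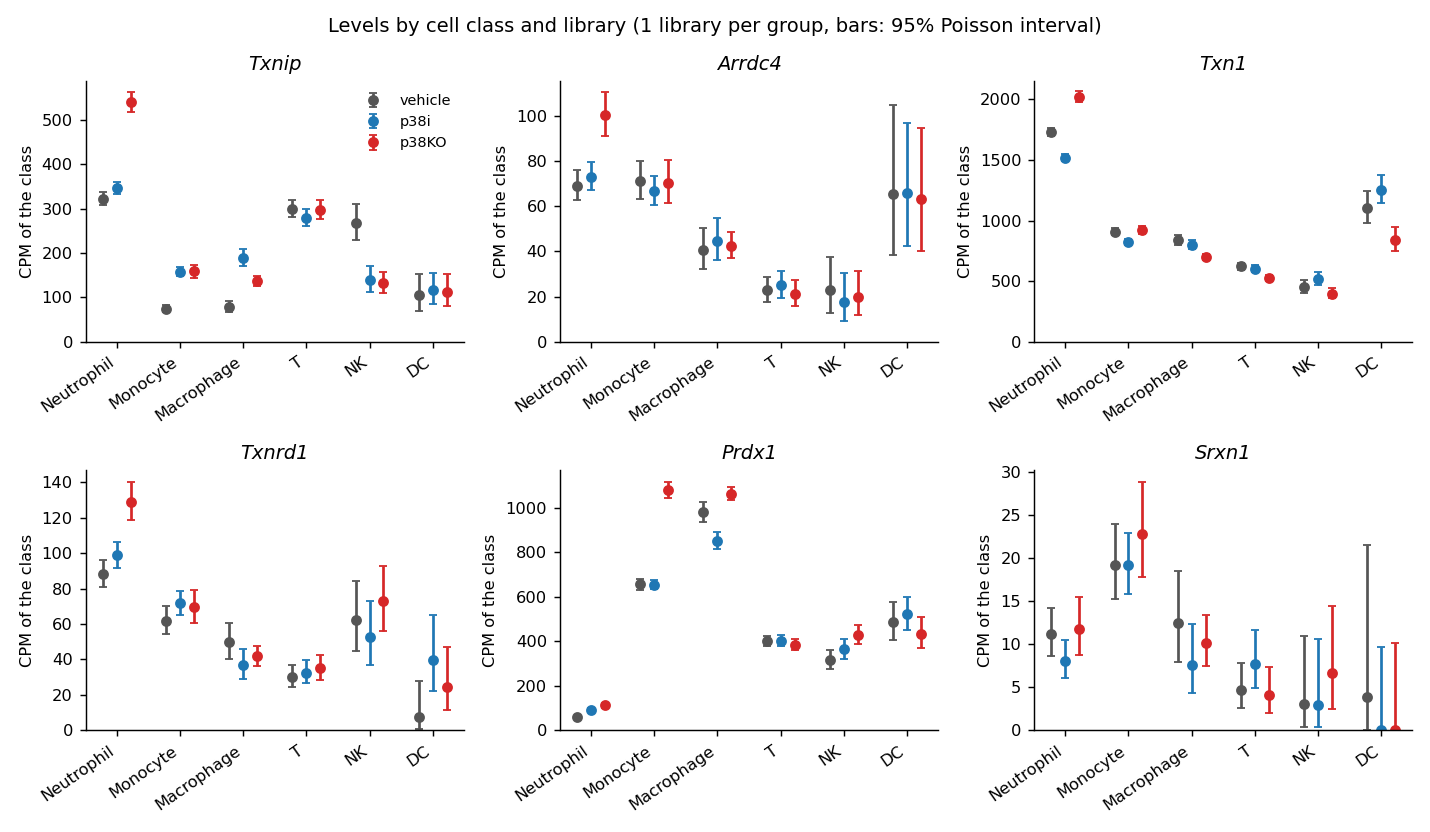
Level of each gene (CPM of the class, vertical axis) in the 6 gated classes for each of the 3 libraries (vehicle, p38i, p38KO), with points for the single library of each group and bars for the 95% Poisson interval. Txnip in monocytes stands at 74.6 CPM in vehicle and 158 CPM in both p38 libraries, in NK cells the vehicle point is the highest, and Prdx1 in p38KO monocytes stands at 1080 CPM.

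Txnip was past the limit in 3 classes for p38i (2 higher, 1 lower) and in 4 for p38KO (3 higher, 1 lower), of 5 classes with enough counts. Monocytes are among the higher classes in each, and their Txnip values chose the genes, so that class supports nothing. The background in monocytes was 4.04% of genes higher for p38i and 6.89% for p38KO, with 2.66% and 2.56% lower. In macrophages 3.36% and 9.18% of genes were higher and 4.25% and 3.62% lower. In neutrophils 10.2% and 10.1% were higher and 3.22% and 2.88% lower. NK cells had 3.19% and 6.99% of genes higher and 9.06% and 10.3% lower, so lower genes were more frequent there than in the other classes. In T cells 5.31% and 8.11% were higher and 2.11% and 3.33% lower, and in DCs 11.3% and 8.85% were higher and 7.01% and 5.6% lower.

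**Figure D2:**
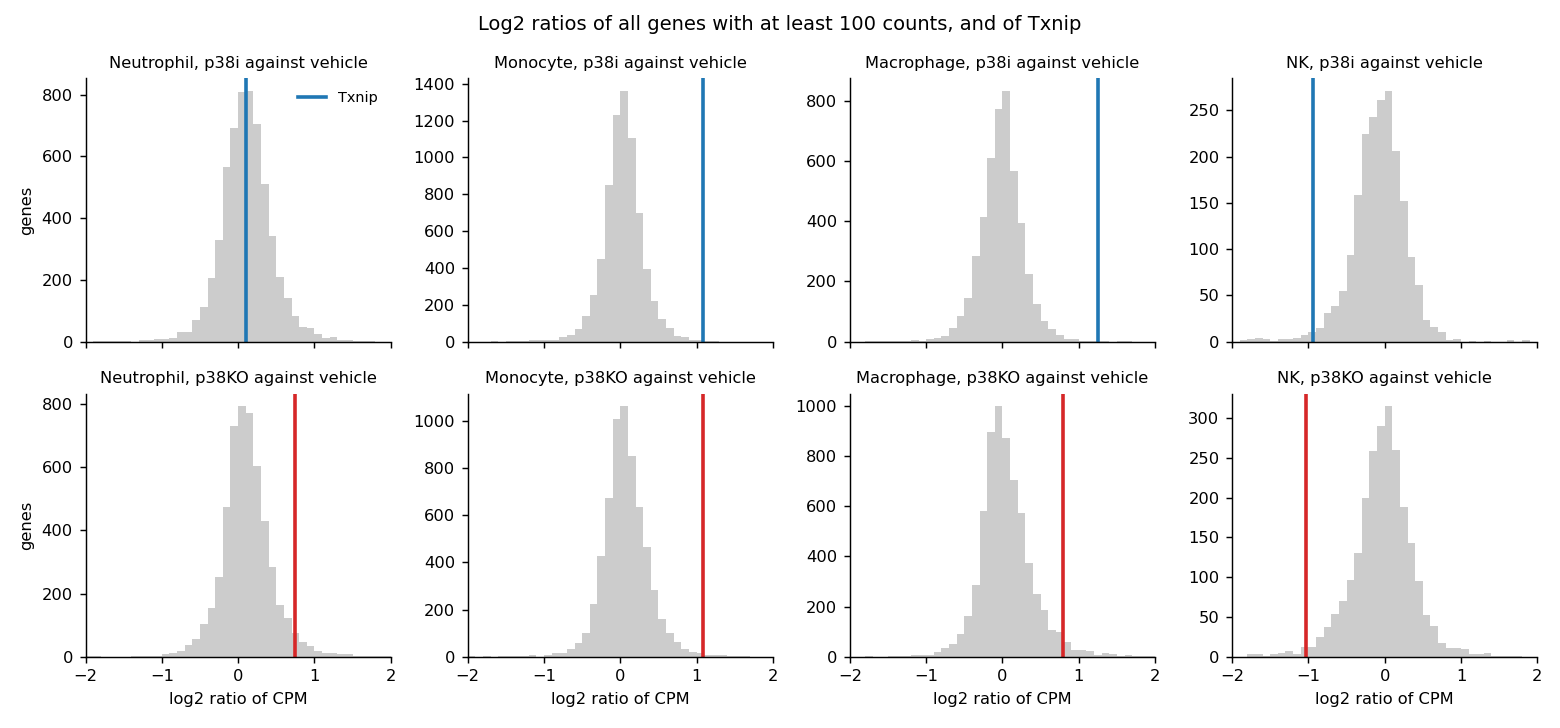
Number of genes (vertical axis) by log2 ratio to vehicle (horizontal axis, drawn from -2 to 2) for all genes with at least 100 counts in neutrophils, monocytes, macrophages and NK cells, for p38i (upper row) and p38KO (lower row). The colored line is Txnip, which lies in the upper tail in monocytes (1.08 and 1.09) and macrophages (1.26 and 0.79), at the middle of the p38i neutrophil genes (0.11) and in the lower tail in NK cells (-0.94 and -1.03).

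In both p38 libraries more monocytes held a Txnip UMI than in vehicle, positive monocytes held more of them at their own depth, and the difference did not rest on the 1% of richest cells. Each cell was thinned to 1500 UMIs to set all cells to the same depth, and Txnip was then seen in 9.34% of vehicle monocytes (exact Clopper-Pearson 95% interval 6.79% to 12.5%), 17.8% (15.1% to 20.7%) of p38i monocytes and 20.7% (16.6% to 25.2%) of p38KO monocytes. At their own depth, a median of 8911, 7681 and 8089 UMIs, the shares were 35.5%, 49.2% and 50.4%. Positive monocytes then held on average 1.97, 2.68 and 2.66 Txnip UMIs, and 2.05%, 8.24% and 8.26% of monocytes held 5 or more. After thinning, positive monocytes held 1.22, 1.23 and 1.28 Txnip UMIs, values so near 1 UMI that no difference in level per cell can be read from them. The 1% of monocytes richest in Txnip held 8.79%, 7.58% and 7.61% of its UMIs, and without them the log2 ratios were 1.11 and 1.10.

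In macrophages the thinned shares of Txnip-positive cells were 9.82%, 20.8% and 19.2%, and in NK cells they were 36.7%, 16.4% and 19.5%. In neutrophils they were 31.0%, 31.6% and 37.7%, and positive neutrophils held 1.81, 1.90 and 2.30 UMIs, so p38KO neutrophils had both more positive cells and more Txnip per positive cell. T cells had shares of 36.1%, 36.9% and 34.1%. No class of leukocytes is known to lack Txnip, so no share of background from free RNA could be set beside these.

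Within the monocyte gate Txnip was higher in both p38 libraries in cells split by Ly6c2 against Fn1 and by Arg1. In monocytes with more Ly6c2 than Fn1 (the inflammatory monocyte marker against a marker of tumor-differentiated cells) Txnip stood at 81.0, 185 and 185 CPM in vehicle, p38i and p38KO, and in those with more Fn1 at 68.2, 149 and 140 CPM. The log2 ratios were 1.19 and 1.19 in the former and 1.13 and 1.03 in the latter. Monocytes without Arg1, the arginase of suppressive myeloid cells, had ratios of 1.04 and 1.18 and those with Arg1 1.14 and 1.10. The level was lower with Arg1 than without it in each library, at 56.0 against 88.6 CPM in vehicle, 124 against 182 CPM in p38i and 120 against 200.5 CPM in p38KO.

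Markers of other cells moved with the groups in the monocyte gate. The 5 neutrophil markers, all detected in each library, summed to 10551, 9166 and 3145 CPM there, and the 4 epithelial markers to 5.59, 3.99 and 145 CPM, with Krt19 at 0 in vehicle and p38i and all 4 detected in p38KO. The 6 DC markers summed to 45.9, 62.8 and 105 CPM, led by Siglech at 28.2, 49.3 and 89.2 CPM. Ccr7 was at 0 in p38KO. The 4 B cell markers went the other way, at 55.1, 36.4 and 12.7 CPM. The 7 dissociation-response genes summed to 3323, 1997 and 2487 CPM. In monocytes with no count of Csf3r or Cxcr2 the Txnip ratios were 1.11 and 0.83, and in monocytes with no epithelial marker they were 1.10 and 1.18. The 20, 22 and 16 monocytes with an epithelial marker had 92.8, 167 and 64.3 CPM. The vehicle value rests on 22 counts, and its interval of 58.2 to 140 CPM held the p38KO value. No direction can be read for p38KO in these few cells. The part of the DC markers, the B cell markers and the dissociation-response genes in the Txnip difference was not tested.

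The Txnip difference in neutrophils was larger in cells without Cxcr2, the chemokine receptor of mature neutrophils. There Txnip stood at 153, 200 and 341 CPM, with log2 ratios of 0.39 (0.11 to 0.66) and 1.16 (0.88 to 1.44), while neutrophils with Cxcr2 had 366, 379 and 580 CPM and ratios of 0.05 (-0.04 to 0.14) and 0.66 (0.57 to 0.76). This was not particular to Txnip. Without Cxcr2 the p38KO ratios of Arrdc4, Txn1, Txnrd1 and Prdx1 were 0.70, 0.53, 1.04 and 1.54. With Cxcr2 they were 0.50, 0.15, 0.44 and 0.70. For p38i, Prdx1 went the other way, at 0.24 without and 0.85 with Cxcr2. Srxn1 had 13 and 11 counts in vehicle and p38KO neutrophils without Cxcr2. Macrophage markers were found in 24.3%, 21.4% and 55.3% of neutrophils, and neutrophils without any had Txnip ratios of 0.14 and 0.68. The 7 dissociation-response genes summed to 5104, 3813 and 5544 CPM in neutrophils and to 1106, 779 and 807 CPM in macrophages, and the 4 mast cell markers to 161 and 136 CPM there in p38KO against at most 2.27 CPM in the other libraries. Their part in the result was not tested. In macrophages the p38KO ratio was 1.00 (0.65 to 1.38) in cells without Mki67 or Top2a and 0.52 (0.15 to 0.91) in cycling cells, and the p38i ratio was 1.24 in both.

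Among T cells, CD4 cells had less Txnip in both p38 libraries than in vehicle, while the intervals of the CD8 and Foxp3-positive ratios held 0. CD4 T cells had 442 CPM (392 to 496) of Txnip in vehicle, 305 CPM in p38i and 325 CPM in p38KO, and their ratios were -0.54 (-0.79 to -0.28) and -0.44 (-0.67 to -0.21). CD8 T cells had 227, 260 and 267 CPM and ratios of 0.19 (-0.01 to 0.40) and 0.23 (-0.01 to 0.47). Foxp3-positive cells had 235, 259 and 293 CPM and ratios of 0.14 (-0.28 to 0.58) and 0.32 (-0.09 to 0.74). In the T cell gate the 7 dissociation-response genes summed to 867, 538 and 811 CPM and the mast cell markers to 0.316, 0 and 152 CPM, with all 4 detected in p38KO, and their part in the CD4 values was not tested. The NK gate of the p38KO library held all 4 mast cell markers, at 1202 CPM in sum, against 39.5 CPM with 1 detected in vehicle and 36.5 CPM with 2 detected in p38i, and in NK cells with no mast cell marker Txnip stood at 246, 122 and 133 CPM, with ratios of -1.02 (-1.43 to -0.61) and -0.89 (-1.27 to -0.52). The 7 dissociation-response genes summed to 889, 416 and 691 CPM in NK cells, and their part in the result was not tested.

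**Figure D3:**
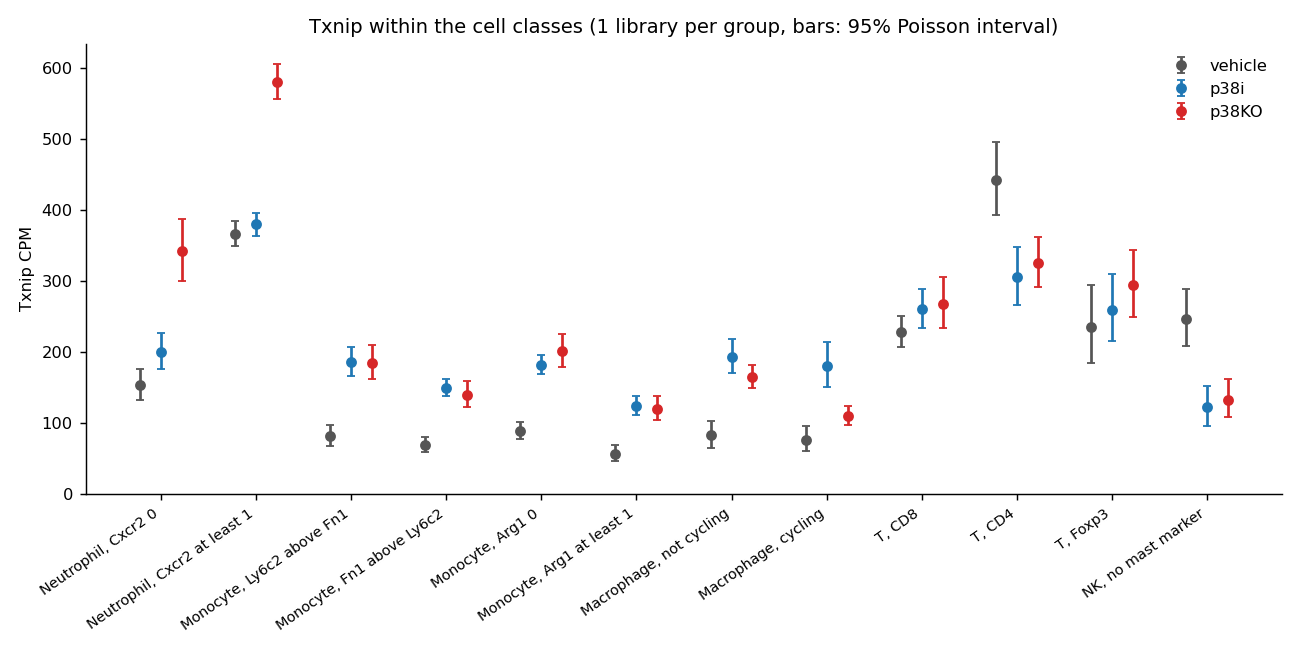
Txnip level (CPM, vertical axis) in subsets of the gated classes (horizontal axis) for each of the 3 libraries (vehicle, p38i, p38KO), with points for the single library of each group and bars for the 95% Poisson interval. Vehicle is the lowest point in every monocyte and macrophage subset drawn, and it is the highest in CD4 T cells (442 CPM) and in NK cells without mast cell markers (246 CPM).

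Arrdc4, a related alpha-arrestin that is likewise a known MondoA target, was near its vehicle level in monocytes and macrophages read as whole gates. In monocytes Arrdc4 stood at 71.2 CPM (63.3 to 79.8) in vehicle, 66.8 CPM (60.6 to 73.5) in p38i and 70.4 CPM (61.3 to 80.4) in p38KO, so all 3 intervals overlapped. The log2 ratios were -0.09 (-0.31 to 0.13) and -0.02 (-0.28 to 0.24), which for the whole gate leaves out a difference of the size of Txnip as far as counting error goes. In monocytes with more Ly6c2 than Fn1, Arrdc4 was lower in p38i, at 37.0 against 59.7 CPM in vehicle, on 65 and 84 counts. The p38i ratio was -0.69 (-1.18 to -0.20) there and 0.01 (-0.25 to 0.27) in monocytes with more Fn1. In macrophages it stood at 40.4, 44.7 and 42.6 CPM. Only neutrophils passed the limit, for p38KO, with 69.2 CPM (62.6 to 76.2) in vehicle, 73.1 CPM (67.0 to 79.7) in p38i and 100.5 CPM (91.2 to 110) in p38KO. The ratios there were 0.08 (-0.11 to 0.27) and 0.54 (0.34 to 0.74), and the second was 0.44 when scaled by the median ratio of all genes and 0.24 when the gates were allowed to overlap. T and NK cells had 17.5 to 24.9 CPM, and DCs 63.2 to 65.7 CPM.

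Txn1, the cytosolic thioredoxin that TXNIP binds, was within the limit in all 6 classes, read as whole gates, for both p38 groups. Its level was highest in neutrophils, at 1734 CPM (1701 to 1768) in vehicle, 1517 CPM (1489 to 1546) in p38i and 2023 CPM (1981 to 2066) in p38KO. These 3 levels did not overlap, with p38i lowest and p38KO highest, and the ratios were -0.19 (-0.23 to -0.15) and 0.22 (0.18 to 0.26). In neutrophils without Cxcr2 the p38KO ratio of Txn1 was 0.53 (0.44 to 0.63), past the limit. Monocytes had 905, 822 and 923 CPM, with ratios of -0.14 (-0.20 to -0.08) and 0.03 (-0.04 to 0.10). For p38KO the ratio was below 0 with an interval that left out 0 in macrophages (-0.27), T cells (-0.24) and DCs (-0.39). In monocytes, where Txnip was about doubled, the Txn1 transcript was thus within a log2 distance of 0.14 of vehicle.

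Txnrd1, the reductase that recharges thioredoxin, passed the limit in neutrophils of the p38KO library. It stood at 88.2 CPM (80.8 to 96.1) in vehicle, 98.8 CPM (91.6 to 106) in p38i and 129 CPM (118 to 140) in p38KO there. The p38KO library lay above both others, and its log2 ratio was 0.55 (0.37 to 0.72), while that of p38i was 0.16 (-0.00 to 0.33). The p38KO ratio was 0.45 with median-ratio scaling, 0.46 in thinned cells and 0.07 with overlapping gates. In monocytes it stood at 61.9, 71.8 and 69.4 CPM and in macrophages at 49.8, 36.6 and 41.8 CPM, with overlapping intervals of neighbors in both classes.

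Prdx1, a cytosolic peroxiredoxin that draws on thioredoxin to remove peroxide, passed the limit in p38KO monocytes and in neutrophils of both p38 groups, and in each case few cells or cells with macrophage markers held much of it. In monocytes it stood at 656 CPM (632 to 681) in vehicle, 654 CPM (634 to 674) in p38i and 1080 CPM (1044 to 1117) in p38KO. The p38i library matched vehicle (-0.01) and the p38KO library stood apart, with a log2 ratio of 0.72 (0.65 to 0.79). Of the 3316 Prdx1 UMIs of p38KO monocytes, 1326 came from 3 of the 363 cells, with 569, 465 and 292 UMIs each. Without the 1% of cells richest in Prdx1 the levels were 621, 613 and 661 CPM and the p38KO ratio was 0.09 (0.00 to 0.18). The thinned share of Prdx1-positive monocytes was 53.5%, 54.5% and 56.2%.

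In these 3 cells Prdx1 took 4.20%, 1.99% and 1.39% of all UMIs. Monocytes with more Fn1 than Ly6c2 had a p38KO ratio of 1.02, and those with more Ly6c2 had 0.07. Over all kept cells, 2 of 3820 vehicle cells, 2 of 4793 p38i cells and 7 of 3859 p38KO cells gave at least 1% of their UMIs to Prdx1, and 3 of the 7 were in the macrophage gate. The profile of the 3 monocyte-gate cells was read after their Prdx1 values had been seen, against the other p38KO monocytes. Txn1 stood at 2174 against 899 CPM, Txnrd1 at 328 against 64.4 CPM on 19 counts and Srxn1 at 138 against 20.6 CPM on 8 counts, while Txnip stood at 86.3 against 160 CPM on 5 counts. Of the 16 genes of the NRF2 pathway list, 13 stood higher in the 3 cells and 3 lower, with Nqo1 and Me1 on 1 count each. Among the former were Gclm (466 against 30.2 CPM), Slc7a11 (707 against 88.3 CPM) and Fth1 (58220 against 11530 CPM), and the latter were Hmox1 (466 against 472 CPM), Keap1 (69.0 against 73.7 CPM) and Osgin1 (0 counts against 12.9 CPM). Among the 13 higher NRF2 genes, Gclc and G6pdx were on 4 and 5 counts. Of the 18 thioredoxin and peroxiredoxin relatives 6 stood higher and 12 lower. The share of all genes that stood higher in the 3 cells was not worked out, so neither count has a background. The cells were picked by Prdx1, itself a known NRF2 target, so these counts are a description only. By the ratio of CPM + 50, the genes with the greatest excess beside Prdx1 were Lpl, a lipoprotein lipase (2364 against 6.31 CPM), Mmp12, the macrophage elastase (8783 against 302 CPM), and Blvrb, a biliverdin reductase (1225 against 75.7 CPM).

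In neutrophils Prdx1 was low, at 58.4 CPM (52.4 to 64.8) in vehicle, 92.0 CPM (85.0 to 99.3) in p38i and 112 CPM (102 to 122) in p38KO. Both p38 libraries lay above vehicle, with ratios of 0.66 (0.47 to 0.85) and 0.94 (0.74 to 1.14). Neutrophils with no macrophage marker had 42.6, 45.0 and 59.5 CPM and ratios of 0.08 (-0.21 to 0.37) and 0.48 (0.12 to 0.84), while those with a macrophage marker had 95.8, 205 and 148 CPM. With overlapping gates the p38i ratio was -0.0945, below vehicle. The 5 macrophage markers, all detected in each library, summed to 273, 405 and 515 CPM in the neutrophil gate. The 1% of neutrophils richest in Prdx1 held 32.1%, 36.1% and 50.4% of its UMIs. Without them the ratio was 0.58 (0.35 to 0.82) for p38i, still past the limit, and 0.496 (0.23 to 0.76) for p38KO, just within it. Over 14 alternatives of gating, scaling and cell choice the Prdx1 ratio ran from -0.0945 to 0.68 for p38i and from 0.48 to 2.06 for p38KO. It was past the limit in 8 of the 14 for p38i and in 12 for p38KO.

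In the other classes Prdx1 was within the limit. Macrophages had 981, 852 and 1063 CPM, T cells 399.9, 403 and 384 CPM and DCs 486, 521 and 434 CPM. NK cells had 317 CPM (276 to 363), 364 CPM (320 to 412) and 428 CPM (386 to 472), with ratios of 0.20 (-0.07 to 0.47) and 0.43 (0.18 to 0.68). Without the 1% of NK cells richest in Prdx1, 1 cell per library, the ratios were 0.36 (0.07 to 0.65) and 0.55 (0.29 to 0.83). The p38KO ratio was then past the limit. Among macrophages too the p38KO library held very rich cells: its 3 richest cells gave 1053 of 5244 Prdx1 UMIs, and without the 1% of richest cells the p38KO ratio went from 0.12 to -0.14.

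Srxn1, the sulfiredoxin that repairs overoxidized peroxiredoxins, was near the lower end of detection and could be read against the limit in neutrophils and monocytes only. In monocytes it stood at 19.2 CPM (15.2 to 23.9), 19.1 CPM (15.9 to 22.9) and 22.8 CPM (17.8 to 28.8), with ratios of -0.00 (-0.43 to 0.42) and 0.25 (-0.24 to 0.73). In neutrophils it stood at 11.1, 8.08 and 11.8 CPM, with ratios of -0.46 and 0.08 whose intervals held 0. Over the whole gates a small difference was not detectable at this depth, while in monocytes the intervals left out a difference of the size seen for Txnip. The interval left out 0 in p38i neutrophils without macrophage markers, with a ratio of -0.75 (-1.45 to -0.06), in p38i neutrophils without the 1% of cells richest in Srxn1 (-0.87, -1.61 to -0.15), and in p38KO monocytes with more Fn1 than Ly6c2 (0.65, 0.02 to 1.29), each on under 100 counts. DCs of the p38i and p38KO libraries had 0 Srxn1 counts, which by a limit of 3 counts allows up to 7.89 and 8.24 CPM.

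**Figure D4:**
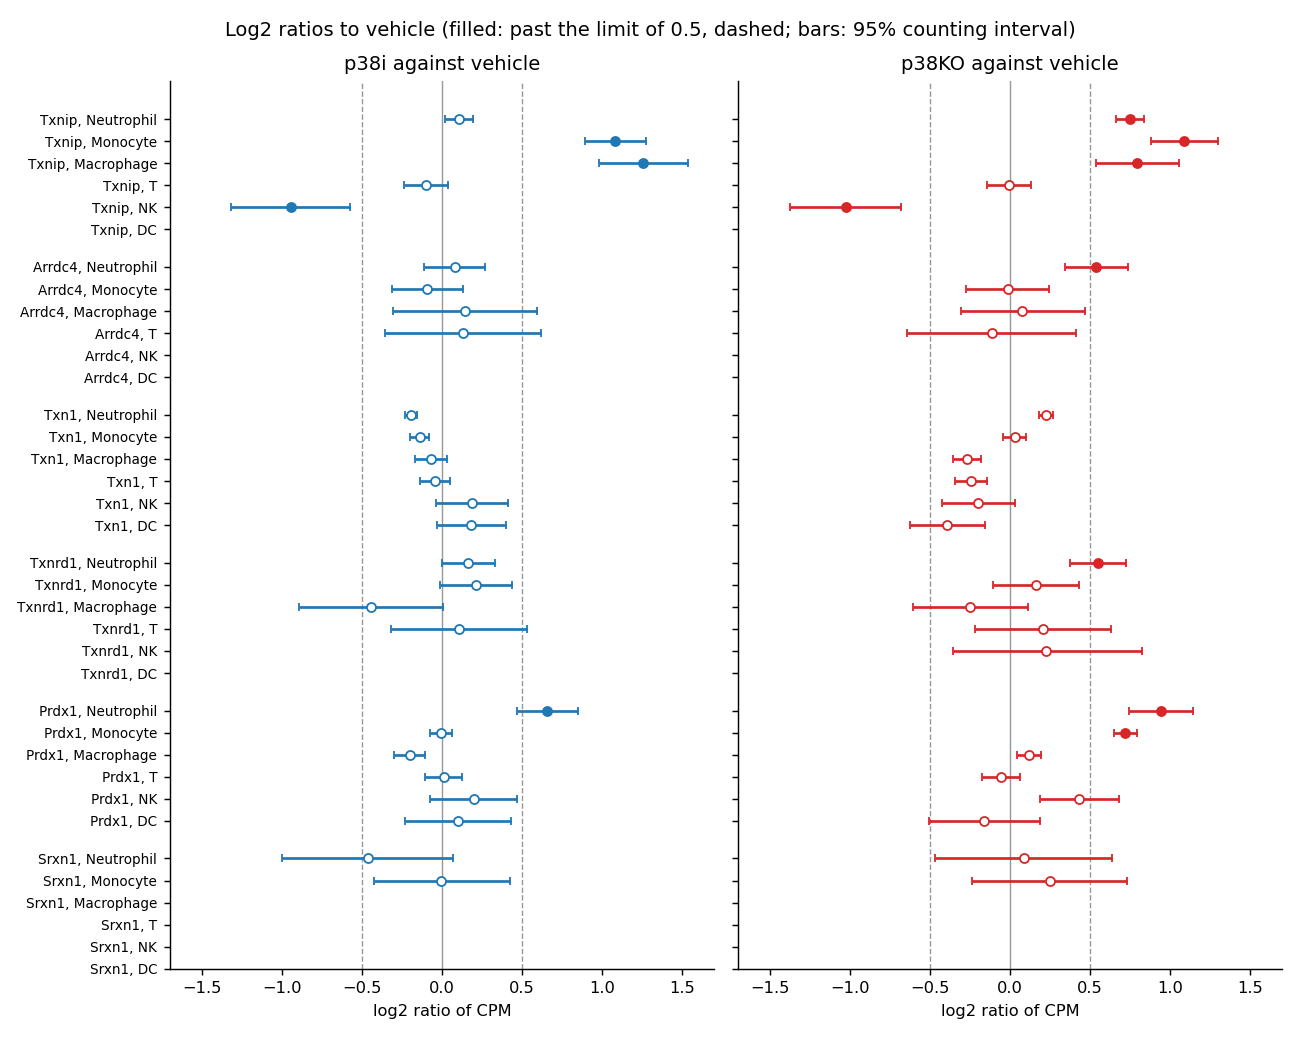
Log2 ratio of CPM to vehicle (horizontal axis) for each gene and class, for p38i (left) and p38KO (right), with bars for the 95% counting interval, filled points past the limit of 0.5 (dashed lines) and no point where both libraries together had under 100 counts. Filled points for p38i are Txnip in 3 classes and Prdx1 in neutrophils, and for p38KO Txnip in 4 classes, Prdx1 in monocytes and in neutrophils, and Arrdc4 and Txnrd1 in neutrophils.

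Read by class, 4 of the 6 genes were past the limit in p38KO neutrophils, namely Txnip, Arrdc4, Txnrd1 and Prdx1, all higher, in a class where 10.1% of all genes were higher. Of these, Arrdc4 and Txnrd1 fell within the limit with median-ratio scaling. Prdx1 did so in neutrophils without macrophage markers and without the 1% of cells richest in it. The 5 neutrophil markers summed to 177732, 198780 and 134584 CPM in the gates of vehicle, p38i and p38KO, and their part was not tested. In p38i neutrophils 1 of 6 genes was past the limit, Prdx1, with 10.2% of all genes higher. In monocytes the count was 1 of 6 for p38i and 2 of 6 for p38KO, all higher, beside 4.04% and 6.89% of all genes, and the p38i gene and 1 of the 2 p38KO genes were Txnip, whose monocyte value chose the genes. In macrophages it was 1 of 5 in each, Txnip, beside 3.36% and 9.18% of all genes higher. T cells had none of 5 and DCs none of 2 in each. NK cells had 1 of 3 and 1 of 4, Txnip, lower, beside 9.06% and 10.3% of all genes lower. With Txnip, 27 pairs of gene and class could be read for p38i and 28 for p38KO. No share of all genes over the pooled classes was worked out. Without Txnip, whose difference chose the genes and which was read in 5 classes, 1 pair was past the limit for p38i and 4 for p38KO. Those 5 pairs were Prdx1 or lay in neutrophils, and the p38i pair stands beside 10.2% of all neutrophil genes higher.

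Over the whole libraries Txnip stood at 200.4 CPM (194 to 207) in vehicle, 237 CPM (231 to 243) in p38i and 247 CPM (241 to 254) in p38KO. The ungated cells had 138, 198 and 195 CPM, again lowest in vehicle. Prdx1 over all kept cells stood at 476, 462 and 663 CPM, in libraries whose shares of cells differed: macrophages made up 2.93%, 2.71% and 8.76% of kept cells.

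The genes around this system were read from 5 lists. In monocytes, 4.04% and 6.89% of all genes were higher and 2.66% and 2.56% lower for p38i and p38KO. Of 18 relatives of thioredoxin and peroxiredoxin, 15 had enough counts in monocytes and none was past the limit for either group, with medians of 0.06 and 0.09 beside medians of 0.03 and 0.05 over all monocyte genes. Of the NRF2 list of 16, 14 and 12 could be read in monocytes, and 1 was past the limit for each group, both higher. These were Osgin1, an oxidative stress growth inhibitor, for p38i (10.9 to 17.5 CPM, ratio 0.68) and Gclm, a glutamate-cysteine ligase subunit, for p38KO (25.5 to 38.4 CPM, ratio 0.59). None of 6 and 5 readable antioxidant enzymes of another list was past it. Of the 4 further alpha-arrestins 2 could be read, and Arrdc3, known to promote the degradation of membrane receptors, was lower in both groups, at 65.3 CPM in vehicle, 39.4 CPM in p38i and 37.1 CPM in p38KO, with ratios of -0.73 (-0.99 to -0.48) and -0.82 (-1.14 to -0.49). The list of MondoA and glucose uptake (the glucose list) held 10 genes, among them the inflammasome sensor Nlrp3. Of these 9 could be read, and 1 was past the limit, the glucose transporter Slc2a3 for p38KO (18.7 to 10.7 CPM, ratio -0.80).

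In neutrophils, where 10.2% and 10.1% of all genes were higher and 3.22% and 2.88% lower for p38i and p38KO, the thioredoxin relatives had 2 of 12 higher for p38i and none of 11 past the limit for p38KO, and the NRF2 list had 2 of 13 lower for p38i and 1 higher and 2 lower of 13 for p38KO. The cystine transporter Slc7a11 went opposite ways, from 232 CPM in vehicle to 156 CPM in p38i and 384 CPM in p38KO, with ratios of -0.57 and 0.73. Other antioxidant enzymes had 1 of 4 higher for each group, alpha-arrestins 1 of 2 lower for p38i and none of 2 past the limit for p38KO, and the glucose list 1 of 9 lower for p38i and 1 of 9 higher for p38KO. Named by size, these were Arrdc3 (-0.75), Sod1 (0.67) and Prdx2 (0.62) for p38i. For p38KO they were, beside Slc7a11, the transketolase gene Tkt (-0.63) and Nlrp3 (0.61). Nlrp3 was the 1 higher gene of the glucose list.

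In macrophages, with 3.36% and 9.18% of all genes higher and 4.25% and 3.62% lower, the stress-induced sestrin Sesn1 was the only 1 of 13 and 15 relatives past the limit, with 19.7, 30.9 and 33.9 CPM and ratios of 0.65 (0.05 to 1.27) and 0.78 (0.27 to 1.33). The NRF2 list had none of 12 past it for p38i and 2 higher and 1 lower of 13 for p38KO, where Gclc (0.76) was higher and Slc7a11 (-0.90) lower. The antioxidant enzymes had none of 5 past it in either group, the alpha-arrestins none of 1 and 1 of 2 lower, and the glucose list none of 6 and 3 of 7 lower. In T cells, with 5.31% and 8.11% of all genes higher and 2.11% and 3.33% lower, the relatives had none of 13 and 1 of 13 higher, the NRF2 list 2 of 11 higher for p38i and 3 higher and 1 lower of 12 for p38KO, the antioxidant enzymes none of 5 and the alpha-arrestins none of 1 in each group, and the glucose list 1 of 6 lower in each. The T cell genes furthest from vehicle were Gclc (0.59), Nfe2l2, which encodes NRF2 (0.55), and the hexokinase Hk2 (-0.51) for p38i, and Gclc (1.47), the heme oxygenase gene Hmox1 (-1.32) and Osgin1 (0.87) for p38KO. In NK cells none of the 10 relatives, 4 or 5 NRF2 genes and 4 antioxidant enzymes that could be read was past the limit, and no alpha-arrestin or glucose gene could be read. DCs, with 11.3% and 8.85% of all genes higher and 7.01% and 5.6% lower, had 1 of 4 relatives higher for p38i and 1 higher and 1 lower for p38KO, 1 higher and 1 lower of 4 NRF2 genes in each, and 1 of 3 and none of 3 antioxidant enzymes higher. Their genes furthest from vehicle were Gpx4 (0.89), Txndc17 (0.74) and Ftl1 (0.54) for p38i and Prdx2 (-0.84), Txndc17 (0.63) and Tkt (0.57) for p38KO.

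The genes whose pattern was most like that of Txnip were sought over the 18 sums of 6 classes and 3 libraries, among 7270 genes, as a description without a test, since sums of 1 library share its depth and composition. On log2 levels the most alike were Syt11 (Pearson r = 0.90), Smchd1 (0.89), Hdac4 (0.87), Nufip2 (0.86) and Ypel3 (0.86). Several of these sums rest on few counts. Syt11 had 4 counts in vehicle macrophages, 9 in vehicle monocytes and 1, 2 and 2 in DCs, and Hdac4 had 2, 5 and 5 in DCs. After the mean of each class was taken off, so that only differences between libraries within a class remained, the most alike were Elf1 (0.97), Brd2 (0.84), Usf2 (0.83), Sbno2 (0.80) and Nufip2 (0.79). The ETS factor Elf1 stood at 78.2, 93.2 and 98.0 CPM in monocytes and at 206, 177 and 173 CPM in NK cells. Its points were thus higher in the p38 libraries in the former and lower in the latter. The NK points rest on 136, 121 and 157 counts, and no counting interval was worked out for them, so their difference may lie within counting error. By the first measure Txnrd1 was the nearest of the other 5 genes, at rank 1108 with r = 0.41, followed by Txn1 at rank 1806 (0.24), Srxn1 at 2720 (-0.01), Arrdc4 at 2793 (-0.03) and Prdx1 at 6959 (-0.71). By the second measure Arrdc4 was the nearest of the other 5 genes, at rank 226 with r = 0.53, and Prdx1, Txnrd1 and Txn1 followed at ranks 2727, 3220 and 3837 with r between 0.05 and 0.15, before Srxn1 at rank 6510 with r = -0.27.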

How the data were processed

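The authors mapped 10x 3′ reads to mm10 with Cell Ranger (6.0.0 in the file headers), and deposited UMI counts per gene and barcode, not normalized. The submitters' processing notes also name R 4.2.1 and Seurat 5. The study's cell filter was applied (1500 UMIs or more, 300 genes or more, mitochondrial share up to 20%), and its SingleR typing was not repeated. Classes are gates on raw counts: at least 1 count (Csf3r plus Cxcr2, Cd3e, Ncr1, Flt3) or 2 (C1qa, Ly6c2 plus Fn1). Conflicting gate genes were excluded in part. Ly6c2, Fn1 and Flt3 were allowed in macrophages, Ly6c2 and Fn1 in T and NK cells, and C1qa below 2 counts in the other classes. For neutrophils and monocytes, Csf3r plus Cxcr2 was set against Ly6c2 plus Fn1 by the larger sum. Doublets were not called. Counts were summed per class and library and divided by the class total. A count of 0 entered ratios as 0.5. Likeness used log2(CPM + 10) of genes with at least 500 counts. Thinning used seed 1. The scripts were tested on simulated data.

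Depth was 20795195, 24210342 and 24374173 UMIs in kept cells of vehicle, p38i and p38KO (monocytes: 4116432, 6269352 and 3070230). Named list genes are the up to 3 furthest from vehicle per class and contrast. Sequences are from RefSeq. The genes and lists were chosen with earlier results of these data known. Tools were Python 3.11.15, numpy 2.4.6, scipy 1.17.1, pandas 2.3.3 and matplotlib 3.10.9.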

Additional observations from a re-analysis of the deposited data

Results flagged for a closer look

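Txnip drew attention because its ratio to vehicle went in opposite directions in different classes of the same libraries. For p38i the log2 ratio was 1.08 in monocytes and 1.26 in macrophages and -0.94 in NK cells. For p38KO it was 0.75 in neutrophils, 1.09 in monocytes and 0.79 in macrophages and -1.03 in NK cells. With 1 library per group the difference between the classes was not tested. The level of vehicle NK cells (267 CPM) was above that of vehicle monocytes (74.6 CPM), and the levels of both classes lay nearer to each other in p38i (139 and 158 CPM) and p38KO (131 and 158 CPM).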

How the results depend on the processing

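The Txnip ratio in monocytes kept its direction and stayed past the limit under all 15 alternatives in each contrast, from 0.68 to 1.15 for p38i and from 0.51 to 1.33 for p38KO. It was 0.68 and 0.51 with overlapping gates, 0.80 and 1.33 with classes from marker lists, and 0.83 for p38KO in monocytes with no Csf3r or Cxcr2. The monocyte values chose the genes, so their stability over the alternatives supports nothing. In macrophages the Txnip ratio ran from 1.04 to 1.35 for p38i and from 0.75 to 1.18 for p38KO. In NK cells it ran from -1.23 to -0.77 and from -1.30 to -0.78. Its absolute value was at least 0.5 throughout. In p38KO neutrophils it was past the limit under 13 of 14 alternatives, and 0.47 with overlapping gates. Classes with Txnip past the limit for p38KO numbered 4 and 2 with a limit of 1.
For the other 5 genes, pairs of gene and class past the limit numbered 1 for p38i. There were 3 with stricter gates, with at least 20 counts or without cycling cells, 2 with median-ratio scaling, without very deep cells or without the richest 1% of cells, 5 in thinned cells, and 0 with overlapping gates or a limit of 1. For p38KO they numbered 4, against 1 with overlapping gates, 2 with median-ratio scaling, 9 in thinned cells and 0 with a limit of 1. In thinned cells and without the richest 1% of cells, the minimum of 100 counts was applied to the full sums. Pairs there can therefore rest on fewer counts: Srxn1 was seen in 13, 17 and 12 thinned monocytes of vehicle, p38i and p38KO. No share of all genes was worked out for the alternatives. Prdx1 in p38i neutrophils reversed to -0.0945 with overlapping gates. The cause of these changes was not tested. Median-ratio scaling shifts ratios by 0.10 in neutrophils of both p38 groups and in p38KO T cells. The alternatives with at most 5% mitochondrial counts, without neutrophil, epithelial, macrophage or mast cell markers and without the richest cells were chosen after seeing the data.
No paired analysis was possible because each group has 1 library. Without replicates, and with few counts in NK cells and DCs, the intervals cover counting error only.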
